A study of Zea mays with 48 samples.

Results

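The genes described here are 129 of the 23753 genes counted in roots of maize seedlings, chosen by a fall from the 0 h roots to the 48 h mock roots that was also present, at about the same depth, at 48 h of tunicamycin. The values that chose them were CPM (each count as a share of the library total, scaled to a common size). A gene had to reach a mean of at least 3 CPM at 0 h, lie at least 1 lower in the mock on the scale of log2(mean CPM + 1), have no mock library as high as any 0 h library, and lie within 0.5 of the mock at 48 h of tunicamycin. Of the 23753 genes, 19836 reached the level at 0 h, 261 of these fell far enough, 220 of those had no overlap of libraries, and 129 were close to the mock at 48 h of tunicamycin. Among the remaining genes that fell, tunicamycin roots were more than 0.5 above the mock for 34 and more than 0.5 below it for 57.

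All plants were seedlings of the inbred line B73, 7 days old according to the sample source. They were germinated on wetted paper in glass bottles at 30 °C and grown on for 7 days at 23 °C. These entries alone do not settle the age at harvest. Tunicamycin was given at 5 µg/ml, and roots were harvested after 0, 3, 6, 12, 24, 36 and 48 h. A mock treatment was harvested at 48 h alone, so the series holds 8 groups of 3 libraries, numbered I, II and III. The 0 h group carries the agent tunicamycin in its labels, at a time of 0 h.

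Tunicamycin inhibits N-linked glycosylation, the attachment of sugar chains to proteins in the endoplasmic reticulum, at its start. Unfolded glycoproteins then build up there, and plant cells answer with the unfolded protein response, which raises chaperones and degradation factors and, under lasting stress, can end in cell death. Seedling roots also change without any drug, as reserves from the seed run down, the root grows and the bottle ages. The members were defined as genes whose fall over 48 h is found with and without the drug. The identifiers of the table matched 0 of the 49888 genes of the reference annotation, so the functions, positions and sequences of the members are not given here, and the root tissue could not be compared with marker genes.

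The 3 libraries of a group were not equally distant, which bears on every test below. Libraries hold 7701856 to 38577551 reads, with a median of 24966395. In 6 of the 8 groups the mean chi-square per gene between libraries I and II was between 2.22 and 10.9, where counting error alone gives about 1, whereas library III stood between 31.0 and 79.6 from either of them over all groups. At 24 h and 48 h libraries I and II were farther apart, at 45.6 and 23.3. Each library was sequenced on lane 6 and lane 7, except that lane 7 of library II of 24 h was left out for low reads, per its label, and the lanes of one library were not alike either. Over 18217 genes the 2 lanes of a library correlated with a median Pearson r of 0.605 (0.0175 to 0.905, 23 libraries, deviations from each gene's mean), and libraries I and II within a lane with a median of 0.843 (0.594 to 0.926, 15 pairs). Of 28 lane samples of libraries I and II, 24 were closer to the other number in the same lane than to their own number in the other lane. In the mock the library names and indices also differ between lanes. For this reason the main counts below are given beside a second fit, called the lane fit, that sums I with II on a lane, takes lane as a term and so enters 4 samples a group. Outside the mock the labels give both lanes of a library one index. If the lanes are repeat runs of one library, the lane fit holds only 2 libraries a group and its p-values are too small; if they are different RNA samples, it does not count them double. Which of these holds was not settled. The labels do not spell out which samples are separate plants or bottles, so p-values measure the spread between these samples. If libraries I and II of a group are not separate samples, p-values of the main fit are too small as well. The same holds, more strongly, for the fit with library III of every group out, which rests on I and II alone.

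At 0 h the members ranged from 3.02 to 3466 CPM, with a median of 15.8 CPM. There were 49 members under 10 CPM and 23 of at least 100 CPM. Their fall to the mock was 1.27 at the median and 4.17 at the largest on the log2 scale. It was under 1.5 for 84 members and at least 2 for 22. These values chose the members and carry no test. Membership turned on small differences at the edges: the smallest fall inside was 1.001 and the largest just outside was 0.997, and the distance between drug and mock at 48 h was 0.499 at most inside and 0.502 just outside. At 48 h the tunicamycin mean was below the mock mean for 86 members and above it for 43. In bulk roots, fewer cells of a type and less RNA per cell cannot be told apart.

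Members' reads took a stable share at 0 h, with 1.21%, 1.23% and 1.23% of all reads in its 3 libraries, in the order I, II, III. In the mock the share was 0.529%, 0.592% and 0.272%, and at 48 h of tunicamycin it was 0.420%, 0.414% and 0.514%. Library III of the mock was thus the lowest of all 24 libraries. The most abundant member made up much of this total: it stood at 3789, 3891 and 2716 CPM at 0 h and at 1807, 2060 and 308 CPM in the mock. Without it the 0 h shares were 0.827% to 0.958% and those of the mock 0.241% to 0.386%. The rule chose every member for such a fall, so the lower sum in the mock is a description and no test.

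Single libraries decided part of the membership. Library III of 0 h was over 4-fold above both I and II for 8 members, and library III of the mock was over 4-fold below both for 6, on the scale of CPM + 1. The mock libraries I, II and III lay at least 1 below the 0 h mean for 93, 91 and 112 of the 129 members. All 9 pairs of a 0 h and a mock library were at least 1 apart for 31 members. When the mock library III was left out, the rule found 122 genes, of which 78 were among the 129; without library III of 0 h it found 174, of which 99 were. In the library left out, 67 of those 122 genes were at least 1 below their 0 h mean in mock library III, and 63 of those 174 were at least 1 above the mock in 0 h library III. For mock libraries I and II the counts were 82 of 184 and 83 of 194. For 0 h libraries I and II they were 83 of 140 and 80 of 134. The group compared with still chose the genes and no share over all genes was taken, so these counts are descriptions. The rule applied to lane 6 alone gave 218 genes (101 shared) and to lane 7 alone 108 (79 shared).

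**Figure D1:**
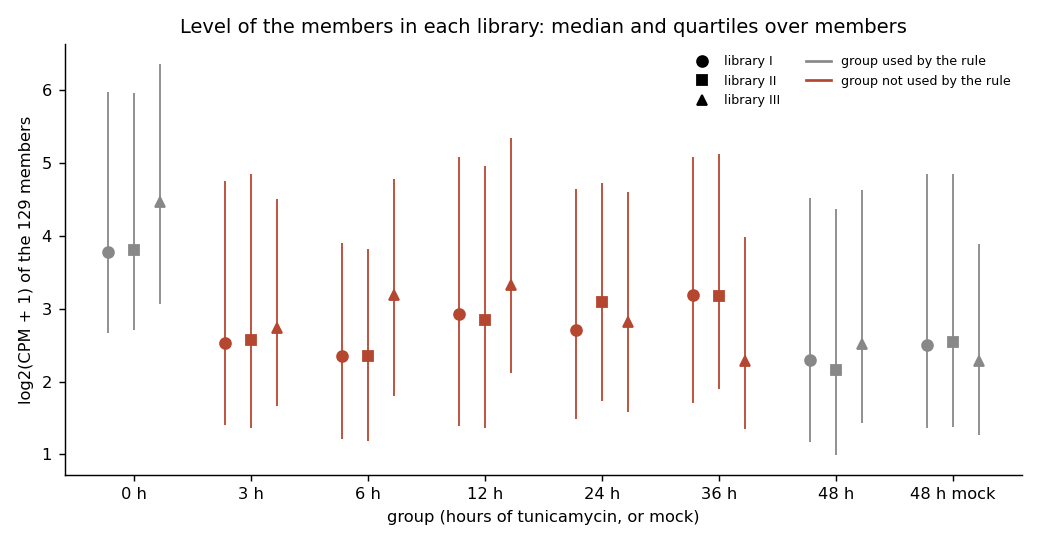
Median (symbol) and quartiles (line) of log2(CPM + 1) over the 129 members in each of the 24 libraries, by group in hours of tunicamycin or mock; grey groups chose the members. The 0 h medians lie between 3.78 and 4.46, and the 3 h medians, in libraries that the rule did not use, between 2.53 and 2.73.

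The label under which these genes were grouped is a fall with age. High 0 h and low 48 h values were conditions of the rule, so the order of those groups is no evidence for or against it. The median level, log2(mean CPM + 1), was 4.07 at 0 h and 2.62 at 3 h. For 6, 12, 24 and 36 h it was 2.65, 3.04, 2.87 and 3.00, and both 48 h groups followed with 2.30 under tunicamycin and 2.46 under mock. Among the times that the rule did not use, 3 to 36 h, the median did not step down with each later time, and the change from 3 h to 36 h, tested below, had no one direction in both lanes. No decline with age over that span can be read from these values, and the members are described here by their rule. No mock was harvested before 48 h, so drug, handling and time cannot be told apart at any time from 3 to 36 h.

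For 3, 6, 12, 24 and 36 h the median difference from 0 h was -1.18, -1.41, -0.96, -1.20 and -1.20. Over all 19836 genes of at least 3 CPM at 0 h it was between -0.03 and 0.05 at these times. Since high 0 h values were a condition of the rule, members had to lie above other groups to some degree, and the differences from 0 h are descriptions. The size was not the same in both lanes. Against the 0 h samples of the same lane, the median difference at 3 h was -1.47 on lane 6 and -1.03 on lane 7, and at 6 h it was -1.67 and -1.14. The order of 3 h, 6 h and 12 h was the same in both lanes, with 12 h nearest to 0 h (-0.96 and -0.82).

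Members differed in when they were highest. Of the 129, 113 had the highest group mean of all 8 groups at 0 h, and the 3, 12, 24 and 36 h groups were highest for 6, 5, 4 and 1. All 3 libraries lay below all 3 libraries of 0 h for 105 members at 3 h, where 24.6% of all genes did so. The count was 98 at 6 h (21.8% of all genes), 76 at 12 h (10.2%), 99 at 24 h (14.8%) and 107 at 36 h (16.1%). Because the 0 h libraries chose the members, nothing is read from these counts beyond where the members stood.

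The place of each member between its 0 h level (0) and its mock level (1) was then taken on the log2 scale. Its median for 3, 6, 12, 24 and 36 h was 0.902, 1.03, 0.683, 0.840 and 0.843. At 3 h, 48 members stood at or beyond the mock level, 60 between 0.5 and 1, 14 between 0 and 0.5, and 7 above their 0 h level. At 6 h the count at or beyond the mock level was 67 and none stood above 0 h. At 12 h it was 23, while 38 were between 0 and 0.5 and 8 above 0 h. Over the same 5 times, 32, 23, 60, 34 and 32 members were more than 0.5 above the mock.

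**Figure D2:**
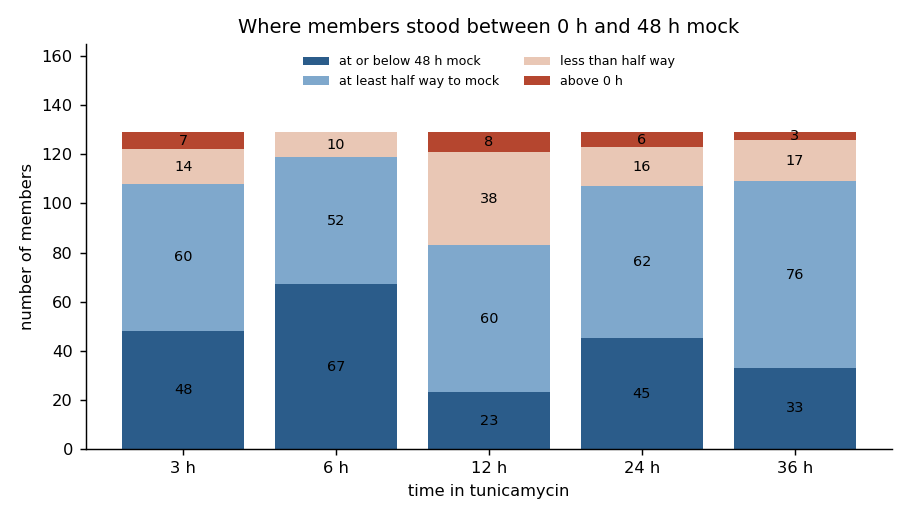
Number of the 129 members at each time of tunicamycin by place between the 0 h level and the 48 h mock level on the log2(mean CPM + 1) scale. At 6 h, 67 members are at or below the mock; at 12 h, 23 are, with 38 between 0 and 0.5 of the way and 8 above 0 h.

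The members were also split by their place at 3 h, where 21 stood below 0.5. From 3 to 36 h the median differences of these 21 from 0 h were -0.21, -1.18, -0.35, -0.79 and -1.17, and the mock stood at -1.26. The 60 members between 0.5 and 1 stood at -1.12, -1.52, -1.11, -1.18 and -1.26 from 3 to 36 h, and the 48 at 1 or beyond stood at -1.55, -1.44, -0.9998, -1.43 and -1.16. Since the 3 h values made these groups, their 3 h levels and the step from 3 h to 6 h within them are descriptions. All 3 groups were nearer to 0 h at 12 h than at 6 h. The members did not move as one: over the 15 libraries of 3 to 36 h the Pearson r between log2 levels of 2 members had a median of 0.253 over 8256 pairs, quartiles of -0.03 and 0.502, and was below 0 for 27.9% of pairs, which share their libraries and depth.

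**Figure D3:**
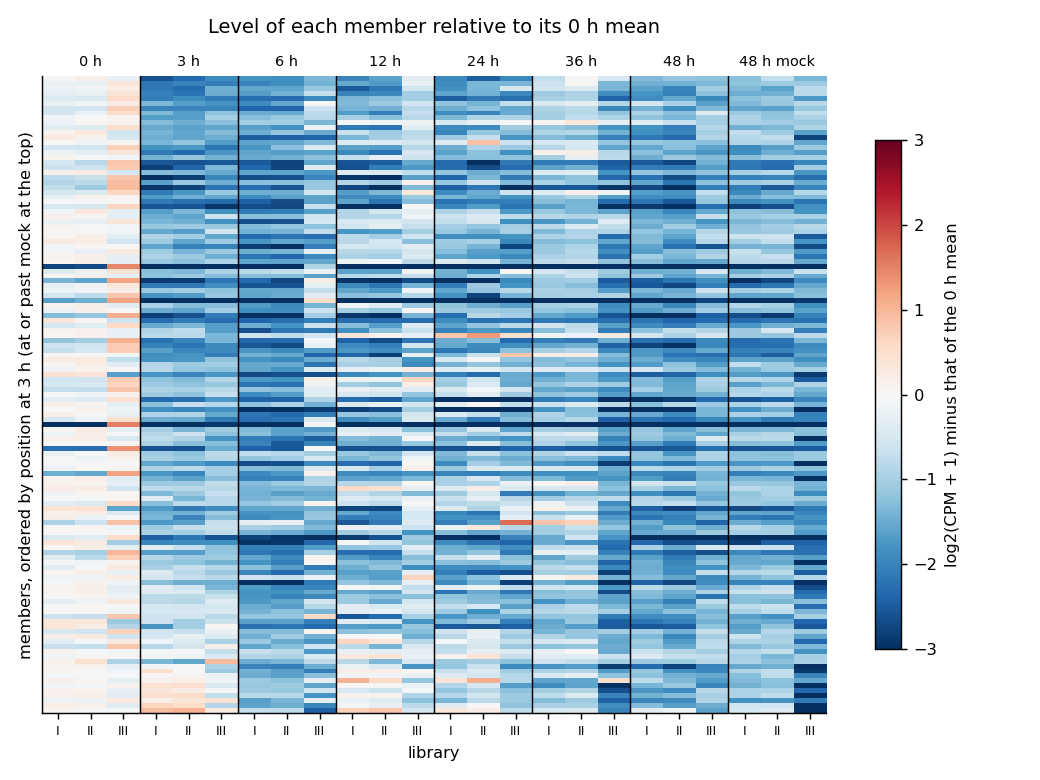
Level of each of the 129 members (rows) in each library (columns) as log2(CPM + 1) minus that of its 0 h mean, ordered by place at 3 h with the members at or past the mock level on top. Most rows are blue from 3 h on; the rows at the bottom, among the 21 members below 0.5 at 3 h, stay near their 0 h level at 3 h, and library III departs from I and II at 6, 12 and 36 h.

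Tests were confined to the 15 libraries of 3 to 36 h, all given tunicamycin, so drug and time cannot be told apart in any of them. In these libraries 126 of the 129 members passed the low-count filter of edgeR. The other 3 had too few reads there. Calls are genes whose p from edgeR's quasi-likelihood test, after Benjamini-Hochberg adjustment over 23744 genes, was below 0.05. From 6 h to 12 h, 27 of the 126 members rose (21.4%) and 0 fell. Over all genes tested 4.64% rose and 1.89% fell. The median log2 fold change was 0.72 for the members and 0.01 for all genes, and 100 members were above 0 and 26 below. At an unadjusted p below 0.05 (edgeR), 55 members were higher and 6 lower, against 3696 and 2595 of the 23744 genes. DESeq2 called 44 higher and 2 lower, against 15% of all genes in either direction.

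Of the 4 comparisons tested, this one called the most members. In the 27 members the fold change was 0.78 to 3.06 on the log2 scale, with a median of 1.62 and adjusted p between 0.00412 and 0.0487 (edgeR). The median over the 27 of the mean level was 43.3 CPM at 0 h, and for 3, 6, 12, 24 and 36 h it was 17.2, 8.23, 25.5, 11.5 and 13.8 CPM. It was 10.4 CPM at 48 h of tunicamycin and 9.34 in the mock. At 12 h, 24 of the 27 were still below their 0 h mean, and 25 were above their 3 h mean. The 6 h and 12 h values picked these 27 and high 0 h values picked all members, so these levels and counts are descriptions.

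How far the rise depends on the libraries was measured in several ways. In the lane fit 25 of 128 members rose and 3 fell, and 22 of the 27 risen before were among the 25; over all genes 2.63% rose and 1.02% fell there. The median was 1.095 on lane 6, with 47 members higher and 1 lower (12.8% of all genes called there in either direction), and 0.43 on lane 7, with 17 higher and 0 lower (5.83%). With libraries I and II summed and lanes pooled, which leaves 2 samples a group, edgeR called 0 of 128 members, and 0 genes in all, while 46 members had an unadjusted p below 0.05 and the median was 0.73. The count fell to 3 without library I or II of 6 h, where 0.27% of all genes were called in either direction each time. It was 7 without library I of 12 h (0.333% of all genes) and 10 without library II of 12 h (0.842%). Without library III of 12 h, 34 rose and 4 fell, with a median of 0.39, where 14.7% of all genes were called. Library III of 12 h was above both other libraries of its group for 84 of the 129 members, and library III of 6 h for 93.

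The genes picked by the same conditions in the opposite direction, 182 genes low at 0 h and high in both 48 h groups, moved the other way between 6 h and 12 h: 0 rose and 22 fell, with a median of -0.99. Of the 57 genes whose fall was deeper with tunicamycin 10 rose and 0 fell (median 0.74), and of the 34 whose fall was shallower 2 rose and 1 fell (median 0.19). Differences between these sets and the members were not tested.

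**Figure D4:**
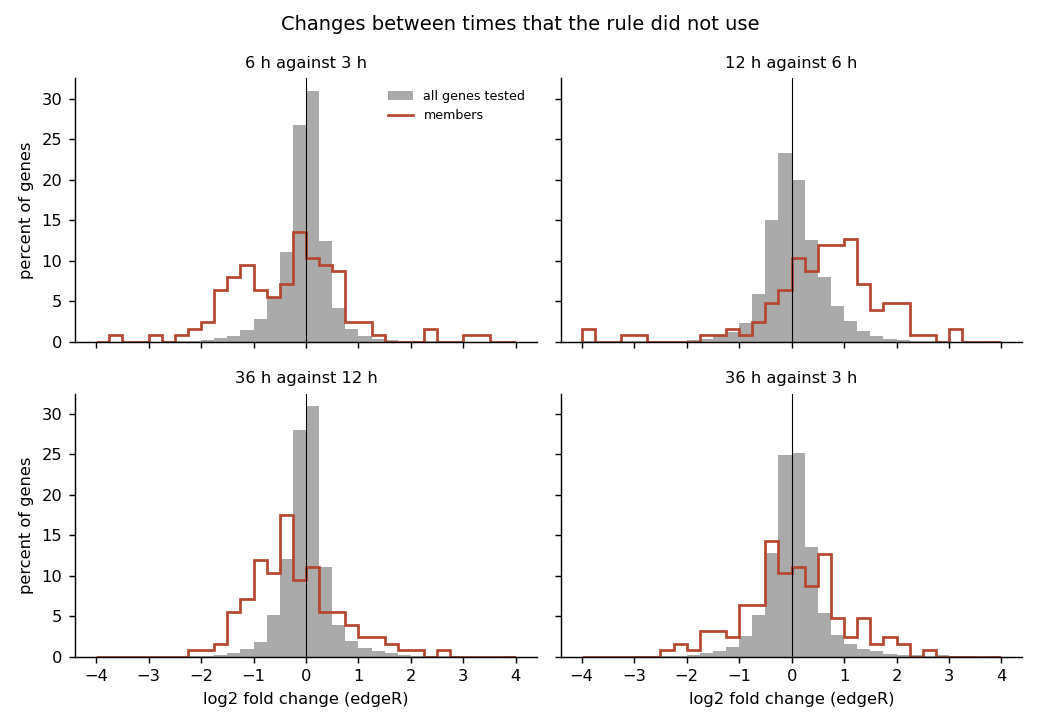
Percent of genes by log2 fold change in 4 comparisons among libraries that the rule did not use, for all 23744 genes tested (grey) and the 126 members tested (red line), values beyond 4 drawn in the last bin. The members are shifted to the right at 12 h against 6 h, with a median of 0.72, and have a median of 0.01 at 36 h against 3 h.

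From 3 h to 6 h, 2 of the 126 members fell and 0 rose, against 0.0463% and 0.00842% of all genes (edgeR). The median was -0.21, with 79 members below 0. At an unadjusted p below 0.05 (edgeR), 41 members were lower and 4 higher, against 1749 and 1038 of the 23744 genes. DESeq2 called 18 lower and 0 higher, against 1.44% of all genes in either direction. In the lane fit 4 members fell and 0 rose, against 0.169% of all genes in either direction. No member was called when library I or II of either group was left out, where 0.00421% of all genes were called each time. Without library III of 3 h, 5 fell (0.181% of all genes in either direction), and without library III of 6 h, 1 fell (0.0337%).

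From 12 h to 36 h edgeR called 0 members in either direction, where 0.0253% of all genes rose and 0.0168% fell. The median was -0.29. At an unadjusted p below 0.05 (edgeR), 28 members were lower and 3 higher, against 1546 and 887 of the 23744 genes. DESeq2 called 7 lower and 0 higher (1.11% of all genes in either direction), and the lane fit 2 lower and 0 higher (0.0674%). The direction depended on library III: with library III of every group out the median was 0.13, with 38 members higher and 27 lower, where 20.6% of all genes were called. Without library III of 12 h alone, 5 rose and 9 fell, where 4.23% of all genes were called.

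The longest span free of the rule, 3 h to 36 h, asks whether the members went on falling under tunicamycin after the first 3 h. With lanes summed, 5 of the 126 fell and 4 rose, against 1.6% and 1.55% of all genes, and 62 were below 0 and 64 above. The median log2 fold change was 0.01 for the members and 0.01 for all genes (edgeR). This balance held opposite shifts by lane. On lane 6 the median was 0.29, with 10 members higher and 6 lower (5.55% of all genes called in either direction), and on lane 7 it was -0.28, with 3 higher and 8 lower (3.13%). The lane fit called 8 lower and 3 higher (2.42% of all genes) with a median of -0.11. With library III of every group out, 39 members were higher and 17 lower, with a median of 0.29, where 22.7% of all genes were called. The 9 calls became 2 when library I or II of 3 h was left out (0.699% and 0.644% of all genes). They became 3 or 2 when I or II of 36 h was (0.674% and 0.514%). With libraries I and II summed and lanes pooled, edgeR called 0 members and 0.00421% of all genes, with 20 members at an unadjusted p below 0.05. DESeq2 called 14 lower and 7 higher in the 15 libraries (8.87% of all genes).

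The 4 members named here are the 2 with the largest fall and the 2 with the largest rise from 3 h to 36 h among the called members with a mean of at least 5 CPM over the 15 libraries of 3 to 36 h and no overlap of 3 h and 36 h libraries. Some called members outside this choice changed by more than some of these 4. Zm00001d004624 stood at 241, 248 and 279 CPM in the 0 h libraries, in the order I, II, III, and at 355, 366 and 187 CPM at 3 h. It read 262, 264 and 225 CPM at 12 h and 68.4, 84.9 and 26.2 CPM at 36 h. The 48 h groups chose it with 98.6, 116 and 64.4 CPM under tunicamycin and 94.5, 106 and 5.28 CPM in the mock. At 6 h it read 116, 123 and 84.3 CPM, below every library of 3 h and 12 h, but the steps from 3 h to 6 h, 6 h to 12 h and 12 h to 36 h did not pass (adjusted p = 0.191, 0.0706 and 0.175, edgeR). It fell by 2.43 ± 0.42 (log2 ± SE) from 3 h to 36 h (adjusted p = 0.00939, edgeR), and by 2.57 in the lane fit.

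Zm00001d022032 was also higher at 3 h than at 36 h. It stood at 9.53, 9.38 and 13.5 CPM at 0 h, at 12.6, 14.2 and 15.1 CPM at 3 h, and at 3.77, 4.49 and 1.19 CPM at 36 h. Between them it read 2.82, 3.55 and 8.73 CPM at 6 h and 9.30, 8.11 and 4.02 CPM at 12 h, 2 groups that overlap, with library III moving against I and II (adjusted p = 0.483, edgeR). The mock libraries held 2.35, 2.43 and 1.76 CPM. All 3 libraries of 3 h were above those of 36 h, and the fall was 2.25 ± 0.50 (log2 ± SE, adjusted p = 0.0324, edgeR). The call was lost when any library of 3 h was left out (adjusted p = 0.0813, 0.0979 and 0.0625 without I, II and III) and when library I or II of 36 h was (adjusted p = 0.0907 and 0.0792, edgeR).

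With lanes summed, Zm00001d024027 had its lowest group mean at 3 h and was higher at 36 h. Libraries I, II and III read 1365, 1442 and 1115 CPM at 0 h, 214, 259 and 349 CPM at 3 h and 789, 1338 and 925 CPM at 36 h. At 24 h, between them, they read 343, 235 and 340 CPM. The return was not steady, and the 12 h libraries ranged from 332 CPM in I to 1033 CPM in III. The rise from 3 h to 36 h was 1.82 ± 0.35 (log2 ± SE, adjusted p = 0.0148, edgeR). It differed by lane: on lane 6 the group mean went from 257 to 1387 CPM, and on lane 7 from 286 to 489 CPM, where the fold change was 0.69 (adjusted p = 0.171, edgeR). Within single lanes the lowest group mean was not at 3 h, but at 24 h on lane 6 (241.1 CPM) and at 12 h on lane 7 (263.5 CPM). In the lane fit the rise was 1.55 (adjusted p = 0.0681, edgeR). Leaving out library I of 3 h, II of 3 h or II of 36 h also ended the call (adjusted p = 0.0812, 0.0791 and 0.0815, edgeR).

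Zm00001d003999 was low at 3 h and 6 h and near its 0 h level again at 12 h and 36 h. It stood at 9.93, 11.9 and 12.4 CPM at 0 h, at 4.02, 3.50 and 4.21 CPM at 3 h and at 5.05, 5.08 and 3.82 CPM at 6 h. At 12 h the libraries held 11.1, 10.4 and 10.3 CPM, and at 36 h 12.1, 14.5 and 9.50 CPM. Groups of 3 h and 6 h lay wholly below those of 12 h and 36 h. The rise was 1.23 ± 0.19 from 6 h to 12 h (adjusted p = 0.00753) and 1.53 ± 0.19 from 3 h to 36 h (log2 ± SE, adjusted p = 0.00155, edgeR). At 48 h of tunicamycin the level was 8.68, 6.66 and 5.09 CPM, and in the mock 5.54, 5.10 and 4.72 CPM. With I and II summed and lanes pooled, none of the 4 named members passed (adjusted p between 0.231 and 0.386, edgeR).

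**Figure D5:**
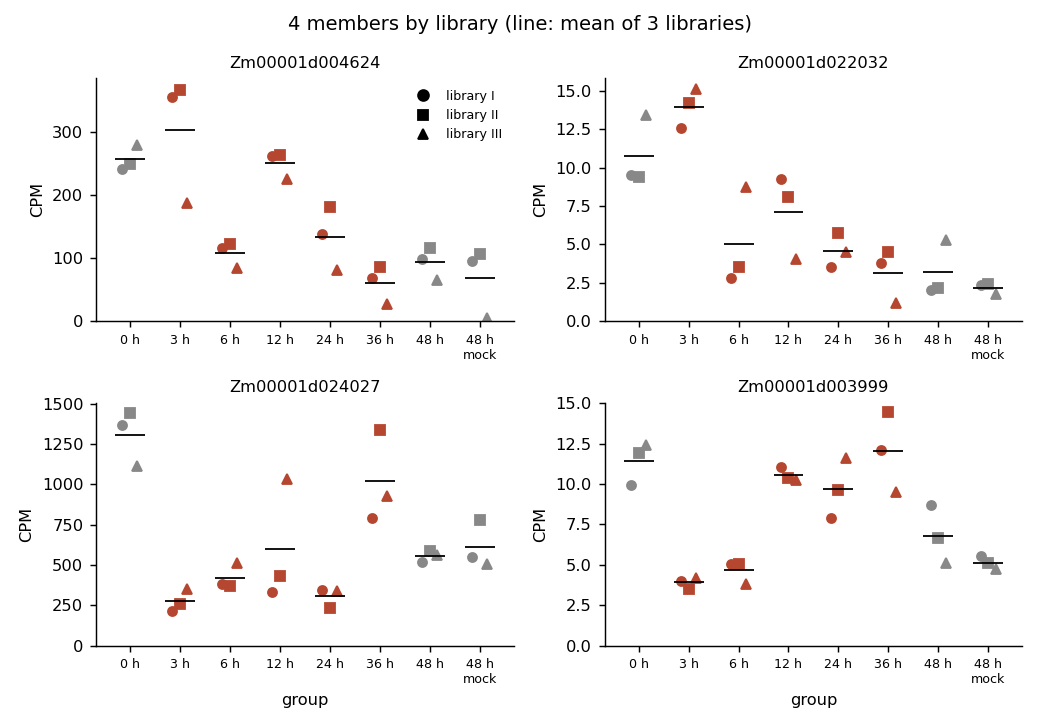
CPM of 4 members in each library by group, with the mean of 3 libraries as a line; grey symbols are groups that chose the members. Zm00001d004624 and Zm00001d022032 are high at 3 h and low at 36 h, and Zm00001d024027 and Zm00001d003999 the reverse.

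As a set, the members had a feature that the rule did not use directly: most were short. The gene length behind the authors' RPKM values had a median of 1630 bp over the 129 members and 3877 bp over the genes of at least 3 CPM at 0 h. When those genes were cut into 5 equal classes of length, 73 members were in the shortest class (135 to 1794 bp), then 26, 19, 10 and 1 in the longest. The 182 genes of the opposite direction were short too, with a median of 1869 bp. So were the genes that fell and stood above the mock at 48 h of tunicamycin (median 1736 bp) or below it (1449 bp). Short length was thus not particular to the members.

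Length moved with expression over the whole table. Across the 19836 genes the Spearman correlation of length with the difference from 0 h was 0.288, 0.349, 0.242, -0.04 and 0.309 for 3, 6, 12, 24 and 36 h, then 0.307 for 48 h of tunicamycin and 0.256 for the mock, all with the same 0 h libraries. The shortest class had a median difference from 0 h of -0.24 at 3 h and -0.13 in the mock, and the 73 members in it -1.35 and -1.27. From 6 h to 12 h, 9.25% of the shortest class rose, against 15 of the 71 tested members in it (21.1%) and 12 of the 55 tested members outside it (21.8%). Over the 126 members tested the Spearman correlation of length with the change was 0.0203, against -0.23 over all genes. The part of length in the fall itself was not tested.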

How the data were processed

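Roots of 8 groups of 3 libraries were profiled by RNA-seq with paired-end reads. For 23753 genes the authors deposited read counts of 24 libraries, as whole numbers, and RPKM values (reads scaled by gene length and depth) of each lane. The tools STAR, featureCounts and edgeR come from the submitters' processing notes. Versions, genome build, annotation and strand use are all not given in the sources used here. Genes that overlap or have near-identical copies therefore have uncertain counts. Samples were grouped by the library name in the description, since titles and time-point entries give other times to the lanes of some libraries; the deposited count columns carry the same grouping.

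From the deposited RPKM and counts together, each gene's length and each lane's reads were worked out. These reads were whole, within 0.001, for 100% of values, and lanes added up exactly to the counts. No source says whether introns count toward the lengths. The table lists no gene under 152 reads in all.

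The rule was applied to CPM without further scaling. Tests used edgeR 4.0.16 in R 4.3.3 (quasi-likelihood, TMM scaling, group means) on the 15 libraries of 3 to 36 h; the low-count filter removed 9 genes. Steps were tested on simulated counts with 50 genes changed at each size. There the 36 h against 3 h test called 8% of 1.5-fold and 28% of 2-fold changes in the right direction. It called 88% of 4-fold and 96% of 8-fold changes, so most 2-fold changes were missed in the simulation. Simulated libraries were drawn independently, without the closeness of I and II or the distance of III. These rates therefore may not hold for the data. SEs were derived from fold change and F statistic. The members, lists and comparisons were chosen with earlier results of these data known. Identifiers printed are the 2 with the largest fall and the 2 with the largest rise from 3 h to 36 h among called members with a mean of at least 5 CPM over the 15 libraries and no overlap of libraries. Marker and pathway lists could not be used, as identifiers are not paired with names. Alternatives were other scaling, DESeq2 1.42.0, a filter at 5 CPM, all 24 libraries, a replicate block, single lanes, libraries I and II summed, each library left out and, chosen after seeing the data, the lane fit, the fit without 24 h and that without library III. RPKM values were used for lengths and lane reads, never in a test.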

Additional observations from a re-analysis of the deposited data

How the results depend on the processing

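Another size factor (RLE) gave the same 9 calls among members from 3 h to 36 h, 2 from 3 h to 6 h, 27 from 6 h to 12 h and 0 from 12 h to 36 h, the order kept here. RLE called 3.26%, 0.059%, 6.41% and 0.0421% of all genes. All 24 libraries in the model gave 10, 2, 33 and 0 (6.1%, 0.0547%, 9.27% and 0% of all genes). DESeq2 called 21, 18, 46 and 7, where it called 8.87%, 1.44%, 15% and 1.11% of all genes. Libraries I and II summed gave 0, 0, 0 and 0 (0.00421%, 0%, 0% and 0% of all genes). Lane 6 alone gave 16, 1, 48 and 0 (5.55%, 0.0552%, 12.8% and 0.017%). Lane 7 alone gave 11, 3, 17 and 0 (3.13%, 0.122%, 5.83% and 0.0505%). The lane fit gave 11, 4, 28 and 2 (2.42%, 0.169%, 3.64% and 0.0674% of all genes). With library III of every group out, 56, 58, 84 and 65 were called (39, 2, 73 and 38 of them higher), along with 22.7%, 11.8%, 34.7% and 20.6% of all genes. With at least 5 CPM required, which tested 71 members, the step from 3 h to 6 h had 1 call (0.0549% of all genes). Without the 24 h libraries this step had 4 (0.173%). Leaving out 1 library at a time gave 2 to 10, 0 to 5, 3 to 38 and 0 to 14 calls in the 4 comparisons. Over all genes 0.514% to 4.66%, 0.00421% to 0.181%, 0.27% to 14.7% and 0% to 4.23% were called there. The cause of these shifts was not tested. Depth limits the members under 10 CPM at 0 h, 49 in number, and the 3 removed by the low-count filter.

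Whether the library numbers pair the samples was not settled. Of 30 correlations of same-numbered libraries 10 were over 0.1 (-0.13 to 0.484, median 0.057), and 8 of 15 libraries were closest to their own number. With the number as a replicate block, 15, 11, 36 and 2 members were called. The block called 3.92%, 0.484%, 9.48% and 0.0969% of all genes, against 3.15%, 0.0548%, 6.53% and 0.0421% in the main fit.

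The rule found 80 genes with the 48 h distance at 0.25 and 186 at 1, 642 with a fall of 1.5-fold and 22 with 4-fold, 218 on lane 6, and 104 to 194 when 1 library was left out. Without library III of all 3 groups that it uses, it found 97, of which 60 were among the 129. With TMM scaling it found 145, all 129 members among them. The 4 named members kept their direction in all 17 alternatives, and each lost its call in at least 1 of them.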
